A study of Mus musculus with 3 samples.

Results

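Genes for RNA-binding regulators of neuronal splicing and mRNA stability were followed through ribosome profiling libraries of mouse cortical neurons, 10 in all. They were the ELAV-like genes Elavl1, Elavl2, Elavl3 and Elavl4, the RBFOX genes Rbfox1, Rbfox2 and Rbfox3, the NOVA genes Nova1 and Nova2, and Ptbp2. The 10 were chosen by symbol, after deposited transcript identifiers were joined to GENCODE symbols, and all 10 were found among the 20805 genes for which both UTRs and the CDS were tabulated. Each gene was represented by its longest transcript. In ribosome profiling, pieces of mRNA shielded from nuclease by a ribosome are sequenced. The neurons were primary cortical cultures from embryos of CD-1 mice, and no genotype was given. There were 3 libraries, 1 for each treatment, each made from 3 pooled dishes. WT neurons were left undrugged. Chx neurons were given cycloheximide, which stops elongating ribosomes, for 2 min. Harr neurons were given harringtonine, which blocks newly initiated ribosomes and lets elongating ones run off the message, for 2 min, and cycloheximide after that. All 3 shared rinse and lysis buffers with 100 μg per ml cycloheximide. A free-text label of each library names a fraction (input or pulldown) and "dep" neurons instead, and if it were right the libraries would differ in more than the drug. With 1 library per treatment no difference between treatments had a replicate check, and errors below are counting errors only.

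ELAV-like proteins bind U-rich and AU-rich stretches of mRNA and act on stability, translation and splicing. Elavl1, also known as HuR, is made in most tissues, whereas Elavl2, Elavl3 and Elavl4 (HuB, HuC and HuD) are mainly neuronal. RBFOX proteins bind the motif GCAUG beside alternative exons, and Rbfox3 encodes the antigen of the NeuN antibody, a marker of mature neurons. NOVA proteins bind clusters of YCAY in neuronal pre-mRNA, and Ptbp2 takes the place of its paralog Ptbp1, a repressor of neuronal exons, when progenitors become neurons.

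The header totals were 30219197 reads in WT, 35722483 in Chx and 9754412 in Harr, so Harr values are the least precise. Of the reads counted over the genes, the CDS held 91.7% in WT, 89.6% in Chx and 62.4% in Harr, and the 5′ UTR held 6.14%, 8.71% and 33.5%. Reads were placed by their 5′ ends, so a ribosome that sits on a start codon adds to the 5′ UTR. Marker genes of neurons (Map2, Tubb3, Snap25 and Syt1) summed to between 3523 and 3935 reads per 1000000, those of astrocytes to between 78.8 and 213, of neural progenitors to between 85.2 and 126, and of oligodendrocytes and microglia to at most 6.52. The neuron sum was carried by Map2, with 407 RPKM in WT and 529 in Harr, while Tubb3 went from 612 to 199.9 RPKM, Snap25 from 709 to 226 and Syt1 from 344 to 165. No library held a read of the oligodendrocyte genes Mog and Mobp. In WT the astrocyte sum was mostly Slc1a3 and Aldh1l1 (3809 and 2263 reads), with 296 reads of Aqp4 and 68 of Gfap. The progenitor sum was mostly Sox2 and Nes (1733 and 1716 reads), with 293 of Mki67 and 58 of Pax6. In such cultures, fewer cells of a type and fewer ribosomes on its mRNAs cannot be told apart.

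The ELAV-like genes were the most heavily read family. CDS levels are given as RPKM, reads per kilobase of CDS and per 1000000 reads of the library, with 95% Poisson intervals. Elavl3 (chr9:22015005-22052010 of mm10, minus strand) had the highest level of the 10 in WT and Chx, at 242 RPKM (237 to 247) in WT, 232 (227 to 237) in Chx and 80.8 (75.5 to 86.3) in Harr. Elavl2 (chr4:91250763-91376463, minus strand) had 176 RPKM (171 to 180.3) in WT, 145 (141 to 148) in Chx and 71.4 (66.6 to 76.5) in Harr. Elavl1 (chr8:4285382-4325413, minus strand), the family's broadly made member, stood close behind them in WT. Its levels were 160.3 RPKM (156 to 165) in WT, 129 (125 to 133) in Chx and 61.1 (56.3 to 66.3) in Harr. Elavl4 (chr4:110203737-110286889, minus strand) was the lowest of the 4, with 100.3 RPKM (97.0 to 104) in WT, 82.9 (80.2 to 85.8) in Chx and 39.8 (36.2 to 43.6) in Harr. The order Elavl3, Elavl2, Elavl1, Elavl4 was the same in each library. Elavl3 made up 35.7% of the summed ELAV-like CDS density in WT, 39.4% in Chx and 31.9% in Harr, and Elavl1 made up 23.6%, 21.9% and 24.2%. An annotated gene that overlaps the 5′ part of Elavl3 on the same strand, Gm49318, shares 232 of the 1104 25-nt words that start in the Elavl3 CDS, so these reads cannot be assigned between the 2 annotations. Between the members themselves at most 5 such CDS words were shared, by Elavl3 with Elavl4 and by Rbfox1 with Rbfox2.

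Within the RBFOX family, Rbfox2 had the highest and Rbfox3 the lowest level. Rbfox2 (chr15:77078990-77306928, minus strand) had 151 RPKM (148 to 155) in WT, 146 (143 to 149.9) in Chx and 97.4 (92.2 to 103) in Harr. Rbfox1 (chr16:6349138-7411526, plus strand) had 58.0 RPKM (55.6 to 60.6) in WT, 57.0 (54.7 to 59.3) in Chx and 23.5 (20.8 to 26.5) in Harr. Rbfox3 (chr11:118491155-118909572, minus strand) had 13.1 RPKM (11.9 to 14.4), 12.6 (11.5 to 13.7) and 4.92 (3.70 to 6.42), from 445, 505 and 54 CDS reads. Rbfox3 therefore lay in the middle of all genes with at least 10 CDS reads, at percentile 58.2 in WT and 56.6 in Chx, and below it in Harr, at percentile 35.2. Rbfox2 carried 68.1% of the family's CDS density in WT, 67.8% in Chx and 77.4% in Harr.

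The NOVA pair and the PTB family were also led by 1 gene each. Nova2 (chr7:18925888-18965319, plus strand) had 115 RPKM (112 to 119) in WT, 105 (102 to 107) in Chx and 118 (113 to 124) in Harr, and by RPKM it alone was not lower in Harr than in both other libraries. Nova1 (chr12:46694517-46818929, minus strand) had 17.6 RPKM (16.4 to 18.9), 13.7 (12.8 to 14.7) and 11.1 (9.47 to 12.9). Scaled to CDS reads instead of all reads, Nova1 too was not lowest in Harr, with 31.9 in WT, 24.3 in Chx and 28.7 in Harr per kilobase and 1000000 CDS reads. Nova2 held 86.8%, 88.4% and 91.4% of the pair's density. Ptbp2 (chr3:119718742-119783804, minus strand) had 141 RPKM (137 to 144) in WT, 122 (119.6 to 125) in Chx and 71.8 (67.7 to 76.2) in Harr. Its paralog Ptbp1 had 17.4, 15.5 and 6.13 RPKM and Ptbp3 had 3.05, 3.53 and 0.848, so Ptbp2 held 87.3%, 86.6% and 91.1% of the family's density.

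Across the 10 genes, no neighbours in the order of levels had overlapping intervals in WT. In Chx the intervals overlapped between Rbfox2 and Elavl2, between Elavl1 and Ptbp2, and between Nova1 and Rbfox3. In Harr, Nova2 was highest, ahead of Rbfox2, and the intervals of Elavl3, Ptbp2 and Elavl2 overlapped along the order. The median level of the 10 was 128 RPKM in WT and that of 23 other splicing regulators was 30.4, of which Raver2 was lowest with 1.15. Of 13 textbook targets of these proteins, Gap43, whose mRNA is bound by ELAV-like proteins, was highest in WT with 1771 RPKM and Cacna1c was lowest with 3.10.

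**Figure D1:**
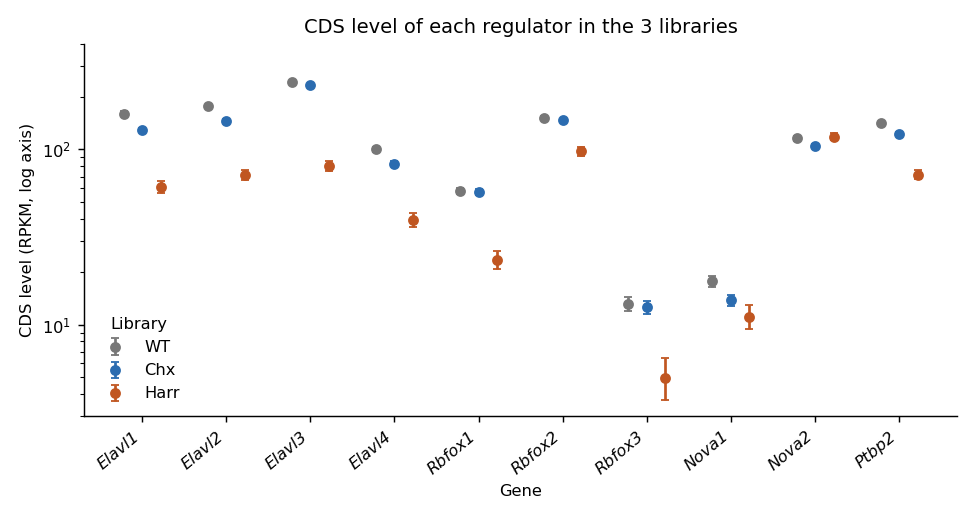
CDS level (RPKM, log axis) of the 10 genes in the WT, Chx and Harr libraries, 1 point per library, with 95% Poisson counting intervals. Elavl3 is highest in WT and Chx, Rbfox3 is lowest in all 3, and Nova2 is highest in Harr.

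Between the 2 libraries without harringtonine, all 10 genes took a slightly smaller share of CDS reads in Chx than in WT. With each library scaled to 1000000 reads in coding sequence, the log2 ratio between libraries ranged from -0.40 for Nova1 to -0.06 for Rbfox1 (counting SE 0.07 and 0.04), with a median of -0.21. All 10 were below 0, against 45.2% of the 11448 genes with at least 100 CDS reads, whose median was 0.03. The interval of the difference reached 0 for Rbfox1 (-0.15 to 0.02) and Rbfox3 (-0.28 to 0.09). Elavl1 had a ratio of -0.35 ± 0.03 (counting SE), Elavl2 -0.32 ± 0.03 and Elavl4 -0.31 ± 0.03, whereas Elavl3 had -0.10 ± 0.02. No member was past 1 in size in this pair, where 0.192% of all genes were at 1 or more and 0.122% at -1 or less.

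After harringtonine the ELAV-like genes, Rbfox1 and Rbfox3 lost CDS reads relative to other genes, and Nova2 gained them. Against Chx, Elavl3 had a CDS log2 ratio of -0.97 ± 0.05, Rbfox3 -0.79 ± 0.21, Rbfox1 -0.73 ± 0.09, Elavl1 -0.53 ± 0.06, Elavl4 -0.51 ± 0.07 and Elavl2 -0.47 ± 0.05. Ptbp2 was at -0.22 ± 0.05, and the interval of Rbfox2 held 0 (-0.13 to 0.05). Nova1 was at 0.25 ± 0.12 and Nova2 at 0.73 ± 0.04. The members' median was -0.49, against -0.05 over all genes and -0.23 over the 4191 genes with a CDS of like length (900 to 1800 nt), and 8 of 10 were below 0, as were 52.4% of all genes. Above 0 were 2 of 10 members and 34.2% of the genes of like length. None was at 1 or more, where 4.63% of all genes were, and none at -1 or less, where 14.0% were. Against WT, which shares the Harr library with the pair above, the median was -0.79, 9 of 10 were below 0 (49.9% of all genes), and Elavl3 at -1.07 ± 0.05 was the only member at -1 or less (14.7% of all genes). Nova2 was the only member above 0 there, at 0.55 ± 0.04, and none was at 1 or more (5.29% of all genes). Over the genes of like length the median against WT was -0.19, and 37.6% of them were above 0.

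The reads that remained in Harr were not spread evenly along the coding sequences. In all 4 ELAV-like genes the coding exons of 104 and 154 nt, which are of equal length in each paralog, were the most depleted of those over 50 nt. In the 104-nt exon, Elavl1 had 512 reads in WT, 554 in Chx and 29 in Harr, Elavl2 449, 399 and 17, Elavl3 652, 787 and 27, and Elavl4 287, 257 and 9. The number of Harr reads per Chx read there was 0.0523, 0.0426, 0.0343 and 0.0350. At the same distance from the start codon, 200 to 400 nt, it was 0.0746 over the genes of like CDS length, and over all CDSs of the libraries it was 0.187. In the last coding exon it was 0.173 for Elavl1, 0.178 for Elavl2, 0.150 for Elavl3 and 0.240 for Elavl4. The coding exon that holds the start codon had 0.246 Harr reads per Chx read in Elavl1 and 0.182 in Elavl2. In Elavl3 and Elavl4 the start codon lies in a short piece of 9 and 24 nt, which had 0 reads in Elavl3 and 2, 0 and 6 in Elavl4, and the exon after it had 0.0865 and 0.0541, so the 5′ ends of the 4 coding sequences are not matched in position.

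Ptbp2 had the highest late-to-early ratio. Its Harr reads per Chx read were 0.0369 in the exon centred 201.5 nt from the start codon (37 against 1003 reads), 0.0892 at 806 nt (80 against 897) and 0.471 in the last exon at 1531 nt (267 against 567). Over the genes of like CDS length that ratio was 0.0746 at 200 to 400 nt and 0.154 at 800 to 1000 nt. At 1400 to 1600 nt it was 0.442, and the CDS of Ptbp2, 1596 nt, is the longest of the 10. With the CDS divided at 600 nt, the ratio in the late part of Ptbp2 was 5.00 times that in the early part, a log2 difference of 2.32 ± 0.14. The log2 difference was 2.01 ± 0.43 for Rbfox3, 1.78 ± 0.19 for Elavl4, 1.37 ± 0.19 for Rbfox1, 1.35 ± 0.10 for Nova2, 1.18 ± 0.12 for Elavl3, 0.92 ± 0.10 for Rbfox2, 0.71 ± 0.13 for Elavl1 and 0.28 ± 0.11 for Elavl2. The values of Ptbp2 and Rbfox3 do not differ beyond their errors. The late part was higher in 9 of 10 members, as it was in 72.7% of the 4009 genes of like CDS length, and the median log2 difference was 1.26 in the members and 0.65 in those genes. Nova1 was the exception, with a log2 difference of -0.54 ± 0.27, and its first coding exon held 39 Harr reads against 68 Chx reads. With the boundary at 400 nt, Elavl2 joined Nova1 below 0 and 8 of 10 remained above it.

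**Figure D2:**
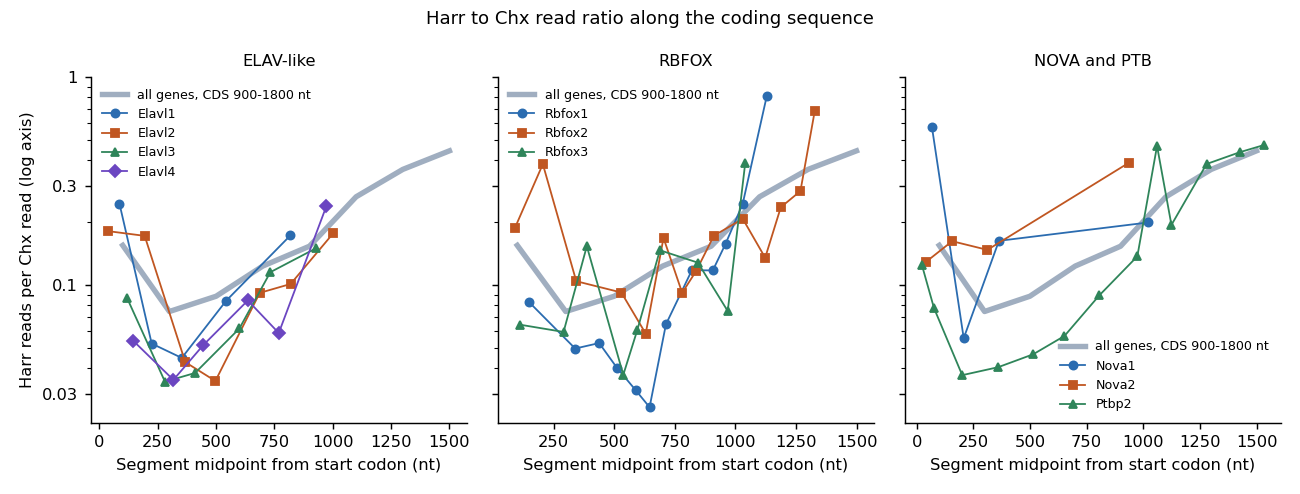
Harr reads per Chx read (log axis) in each coding exon segment against the distance of its midpoint from the start codon, for segments with at least 1 Harr and 10 Chx reads, with the genes of CDS 900 to 1800 nt pooled in bins of 200 nt as a grey line. The grey line falls from 0.155 in the first bin to 0.0746 in the next and then climbs, and the segments of the ELAV-like genes and Ptbp2 centred between 200 and 600 nt lie below it.

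The 5′ UTR gained reads relative to the CDS after harringtonine in every member but Nova2. The measure, called the 5′ UTR:CDS log2 odds ratio here, compares the odds that a gene's read lies upstream of the CDS rather than in it, after adding 0.5 to the counts. In Harr against Chx the median of the members was 2.77, with 9 of 10 at 1 or more. Over the 10713 genes that had 10 or more such reads in both regions the median was 2.46 and 92.1% were at 1 or more, so the members' share was near that of all genes. Above 0 were 9 of 10 members and 98.6% of all genes. Against WT the median was 3.27, with 9 of 10 at 1 or more (96.0% of all genes) and all 10 above 0 (99.0%).

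Elavl3 had the highest value of the 10 in both Harr comparisons. Its 412-nt 5′ UTR held 202 reads in WT, 619 in Chx and 1069 in Harr, while its CDS held 8069, 9146 and 870. The 5′ UTR thus took 2.44% (95% Wilson interval 2.13 to 2.79) of the gene's reads in WT, 6.33% (5.86 to 6.83) in Chx and 54.6% (52.4 to 56.8) in Harr, and the log2 odds ratio was 4.18 ± 0.09 against Chx, at percentile 93.5 of all genes, and 5.61 ± 0.12 against WT. No other member's interval reached that of Elavl3 against Chx, and that of Ptbp2 did so against WT. Its 5′ UTR holds no ATG, and only the first 9 nt of its CDS lie in the same exon, a piece with 0 reads in all 3 libraries. Elavl2 came next against Chx with 3.44 ± 0.09, from 636, 694 and 1017 reads in the 5′ UTR and 6201, 6028 and 813 in the CDS. Most of those 5′ UTR reads were not beside the start codon: 928 of the 1017 Harr reads lay in an upstream exon of 528 nt (chr4:91375936-91376463), which held 579 reads in WT and 643 in Chx, and 89 lay in the 19 nt that adjoin the start codon. That exon contains the only upstream ATG of Elavl2, 417 nt before the start codon and followed by an ORF of 10 codons.

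Elavl1 and Elavl4 stood nearer the middle of all genes, at percentiles 50.8 and 60.7. Elavl1 had 79, 165 and 119 5′ UTR reads and a log2 odds ratio of 2.48 ± 0.18 against Chx. A 16-nt piece beside its start codon held 56, 110 and 58 of these reads, 70.9% of the total in WT and 48.7% in Harr, while the 528-nt upstream exon rose from 23 reads in WT and 55 in Chx to 61 in Harr. Elavl4 had 115, 116 and 103 5′ UTR reads and a log2 odds ratio of 2.76 ± 0.21. Of its Harr reads, 87 fell within 123 nt of the start codon and 16 in the 273 nt beyond, where 7 of its 8 upstream ATGs lie. A first exon used by other Elavl4 transcripts (chr4:110287242-110287527) had 31 reads in WT, 78 in Chx and 108 in Harr.

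Start-codon windows are given for the members with the largest shifts in Harr against Chx and for Nova2, which shifted the other way. Reads counted in the 5′ UTR can include ribosomes at these codons, but whether they make up the shifts was not tested. In Harr, 89 of 1017 such reads of Elavl2 lay within 19 nt of the start codon, and 9 of 188 of Ptbp2 within 25 nt. The counts of Elavl3 do not resolve position in its 5′ UTR. Each window has 12 bases before the start codon, the start codon in capitals and 9 bases after it, read 5′ to 3′ from the GENCODE M21 transcript. The Elavl3 start codon lies at chr9:22051596-22051598, that of Elavl2 at chr4:91311642-91311644, that of Ptbp2 at chr3:119783207-119783209 (all minus strand) and that of Nova2 at chr7:18926080-18926082 (plus strand).
Elavl3: gggcacacaagaATGgtcactcag
Elavl2: ctccaaactaacATGgcagtcaga
Ptbp2: tccggttcggcaATGgacggaatt
Nova2: caggccccccccATGgagcccgag
Elavl3, Elavl2 and Ptbp2 have a purine 3 bases before the ATG and a G right after it, and Nova2 has the G without the purine. Over the 10 members, 6 had that purine and 7 had that G. At least 1 ATG lay in the 5′ UTR of 7 of 10 members and of 55.4% of 20646 genes whose CDS starts with ATG. Per 100 nt of 5′ UTR the median number of ATGs was alike, 0.354 in the members and 0.355 in those genes.

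Nova2 alone went the other way. The 192 nt annotated as its 5′ UTR held 190 reads in WT, 442 in Chx and 69 in Harr, against 5160, 5525 and 1706 in the CDS. Its log2 odds ratio was -0.98 ± 0.19 in Harr against Chx, at percentile 0.308 of all genes, and 0.14 ± 0.21 against WT, whose interval (-0.26 to 0.55) holds 0. In the other annotated coding transcript of Nova2 these same 192 nt (chr7:18925888-18926079) are coding, and its CDS of 1671 nt begins at the first base of the transcript. The stretch is open in frame with the CDS over all 64 codons, with 3 in-frame ATGs and 0 stop codons. In Chx it was read at 2.30 reads per nt, as dense as the next 85 nt of CDS with 2.27, in Harr at 0.359 against 0.294, and in WT at 0.990 against 2.31. Of the 1800 tested genes whose UTRs overlap an annotated CDS, 3.89% had a log2 odds ratio below 0 in Harr against Chx, compared with 0.841% of the 8913 whose UTRs do not. Overlap of either the 5′ or the 3′ UTR was counted there. Elavl3, Rbfox2 and Rbfox3 were counted as overlapping too and had values above 0. Whether overlap bears on the value of Nova2 was not tested. Nova1, whose 178-nt 5′ UTR overlaps no CDS, had 25, 41 and 49 reads there and a log2 odds ratio of 2.43 ± 0.33.

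In Rbfox1 and Rbfox2 the 5′ UTR reads were divided among several first exons. Rbfox1 had 79, 107 and 101 reads in the 5′ UTR of its longest transcript and a log2 odds ratio of 3.06 ± 0.22. More reads lay in exons that this transcript lacks, a 510-nt exon (chr16:5885355-5885864) with 135 reads in WT, 247 in Chx and 398 in Harr and a 63-nt exon (chr16:6173605-6173667) with 127, 253 and 265. Counted over all 5′ UTR exons free of CDS, Rbfox1 reached 3.48 ± 0.12. Rbfox2 had 47, 75 and 88 reads in its longest transcript's 5′ UTR and a log2 odds ratio of 2.69 ± 0.23, and the 230-nt 5′ UTR of another start (chr15:77153557-77153786) had 115, 191 and 308. The first coding exons of Rbfox2 differed as well. The 180-nt one of the longest transcript had 75 reads in WT, 133 in Chx and 25 in Harr, whereas a 42-nt one of another start (chr15:77245490-77245531) had 137, 249 and 228. Rbfox3 had 129, 203 and 151 5′ UTR reads, the largest share of a member's own reads, 22.4% in WT, 28.7% in Chx and 72.2% in Harr. Its log2 odds ratio was 2.79 ± 0.26, and its first exon of 269 nt held 54, 141 and 90 of these reads. Of the 152 Harr reads over all its 5′ UTR exons free of CDS, 151 lay in the longest transcript.

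Most 5′ UTR reads of Ptbp2 lay 26 to 77 nt upstream of the start codon. There were 33 in WT, 134 in Chx and 188 in Harr over 595 nt, giving a log2 odds ratio of 3.13 ± 0.17 against Chx and 5.09 ± 0.27 against WT. Nested annotated 5′ ends resolve their position. The 25 nt beside the start codon held 0, 7 and 9 of these reads. The 52 nt that lie 26 to 77 nt upstream of the start codon held 27, 108 and 151, and the 416 nt farthest from it held 1, 1 and 3. All 4 upstream ATGs lie in that nearly empty distal part, 449 to 594 nt before the start codon.

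Between Chx and WT the 5′ UTR shifted less than in the Harr comparisons for every member but Nova2. In Chx against WT the log2 odds ratio was 1.96 ± 0.28 for Ptbp2, 1.43 ± 0.12 for Elavl3, 1.13 ± 0.20 for Elavl1 and 1.12 ± 0.13 for Nova2, which made 4 of 10 at 1 or more, against 34.7% of all genes. The intervals of Elavl4 (-0.33 to 0.42), Rbfox1 (-0.21 to 0.65) and Rbfox2 (-0.05 to 1.00) held 0. That did not last when all 5′ UTR exons free of CDS were counted, a choice made after seeing the data. Elavl4 then had 156 such reads in WT and 206 in Chx, Rbfox1 342 and 608, and Rbfox2 199 and 305. Their intervals then lay above 0. All 10 values were above 0 (80.8% of all genes), and the median was 0.65, as it was for the genes of like CDS length, with 0.67 over all genes.

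**Figure D3:**
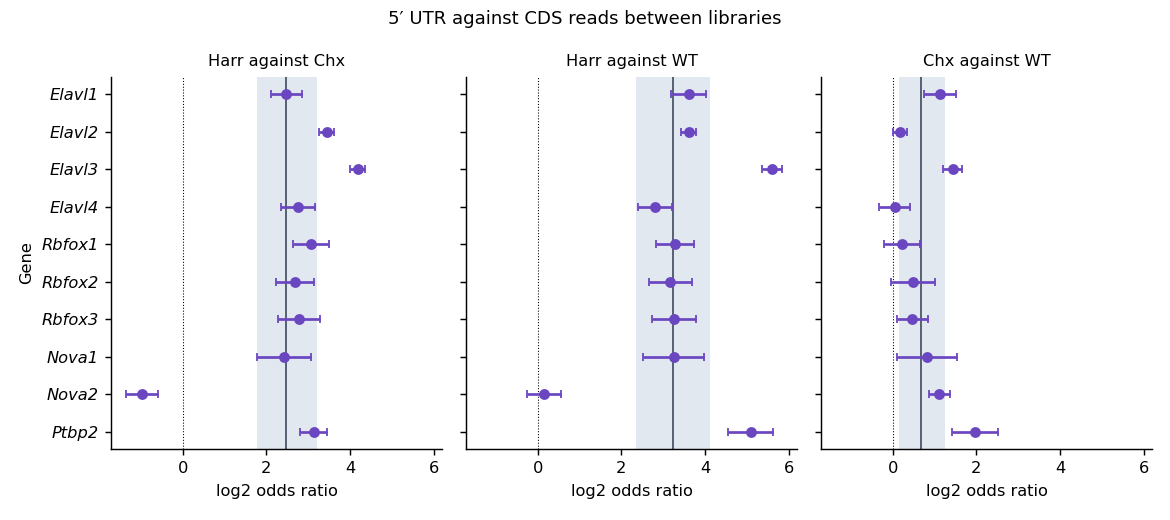
The 5′ UTR:CDS log2 odds ratio of each gene in the 3 pairs of libraries, points with 95% counting intervals, with the median of all genes as a line and their quartiles as a shaded band. Elavl3 is highest and Nova2 lowest in both Harr comparisons, while Ptbp2 is highest in Chx against WT.

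The 3′ UTRs were almost empty in WT. In WT they held between 0.165% of the gene's reads (Elavl1, 8 reads) and 0.794% (Elavl4, 29 reads), and in Harr between 0.465% (Nova1, 1 read) and 4.66% (Elavl4, 27 reads). Of the reads of all genes together, 2.19% lay in 3′ UTRs in WT, 1.71% in Chx and 4.10% in Harr. Elavl4 and Rbfox2 (4.26%, 61 reads) were above that share in Harr.

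Several of these splicing regulators are themselves spliced through short alternative exons, whose reads can be counted exon by exon. Exon density was set against the median density of the gene's exons of at least 50 nt that no annotated coding transcript skips, over the 3 libraries summed. Exons of 30 to 60 nt that are never skipped had a median of 0.638 (quartiles 0.345 and 1.00, 3726 exons of genes with at least 1000 CDS reads), and annotated skipped exons of that size had a median of 0.0993 (1376 exons).

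A 39-nt exon of Elavl2, Elavl3 and Elavl4, in the linker before the last RNA recognition motif, was read in all 3. It had 142 reads in WT, 79 in Chx and 8 in Harr in Elavl2, where 6 of the 12 coding transcripts contain it and 3 span and skip it, and its relative density was 0.549 (0.480 to 0.624, 95% Poisson interval). In Elavl4 it had 102, 102 and 6 reads and a relative density of 0.944 (0.821 to 1.08). In Elavl3, where no annotated coding transcript skips it, it had 302, 286 and 33 reads and a density of 1.06 (0.974 to 1.14). The interval of Elavl2 was below those of both paralogs when the libraries were summed, but the libraries differed. In WT its relative density was 0.779 (0.656 to 0.919), which overlaps that of Elavl4 with 0.895 (0.730 to 1.09), and in Chx it was 0.420 (0.333 to 0.523) against 0.990 (0.807 to 1.20). The first 30 bases are given, with capitals where the 3 paralogs have the same base, from chr4:91254141-91254179 for Elavl2, chr9:22024674-22024712 for Elavl3 and chr4:110209740-110209778 for Elavl4, all on the minus strand.
Elavl2: GtTGGACAATcTGCTcAATATGGCtTAtGG
Elavl3: GcTGGACAATtTGCTcAATATGGCcTAcGG
Elavl4: GcTGGACAATtTGCTtAATATGGCcTAtGG
Over the whole exon 32 of 39 bases are the same in all 3.

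Rbfox1 and Rbfox2 each carry a 40-nt and a 43-nt exon that are used in exclusion of each other, known as the brain and the muscle form. Nearly all reads lay in the 40-nt exon. In Rbfox1 the 40-nt exon had 12 reads in WT, 17 in Chx and 2 in Harr, and the 43-nt exon 0, 1 and 0. In Rbfox2 the 40-nt exon had 73, 96 and 13 reads, and the 43-nt exon again 0, 1 and 0. The 40-nt form thus took 31 of 32 reads in Rbfox1, or 96.9% (exact 95% interval 83.8 to 99.9), and 182 of 183 in Rbfox2, or 99.5% (97.0 to 100.0). The relative density of the 40-nt exon was 0.250 (0.170 to 0.355) in Rbfox1 and 0.312 (0.269 to 0.361) in Rbfox2, both below the lower quartile of short exons that are never skipped, which their intervals still reach. The pairs are shown over their first 30 bases, with capitals where Rbfox1 and Rbfox2 have the same base. The 40-nt exons lie at chr16:7363865-7363904 (plus strand) and chr15:77094451-77094490 (minus strand), and the 43-nt exons at chr16:7369801-7369843 and chr15:77091812-77091854.
Rbfox1 40-nt: TGTtGTTTACCAGGAtGGATTTTAtGGTGC
Rbfox2 40-nt: TGTgGTTTACCAGGAcGGATTTTAcGGTGC
Rbfox1 43-nt: AgTAGTGTatCAaGAgCCAgTgtaTgGCaa
Rbfox2 43-nt: AaTAGTGTtaCAgGAaCCAaTcatTaGCgc
The paralogs have the same base at 34 of 40 positions of the 40-nt exon (85.0%) and at 27 of 43 of the 43-nt exon (62.8%).

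In Ptbp2 a 34-nt exon is skipped in transcripts that are known to be degraded, since its length shifts the reading frame, and its inclusion gives the full-length protein. It had 46 reads in WT, 45 in Chx and 21 in Harr and a relative density of 0.343 (0.283 to 0.413). It lies at chr3:119724612-119724645 on the minus strand and its first 30 bases are printed as the part of Ptbp2 that decides between the forms.
Ptbp2: atggttacgccccaaagtctgtttaccctc
Nova1 has a 72-nt exon (chr12:46713498-46713569) that 1 of its 3 coding transcripts lacks, and it had 3 reads in WT, 1 in Chx and 0 in Harr. Over all members, 29 skipped coding segments of at least 20 nt were annotated, with a median relative density of 0.312 and 19 under 0.5. Fewer than 10 reads lay in 11 of them, each at 0.0670 or less, and the other 18, which are higher in part because of that minimum, had a median of 0.648 with 8 under 0.5. Of the 17 that were 30 to 60 nt long, 12 were under 0.5, where 75.4% of all skipped exons of that size were.

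**Figure D4:**
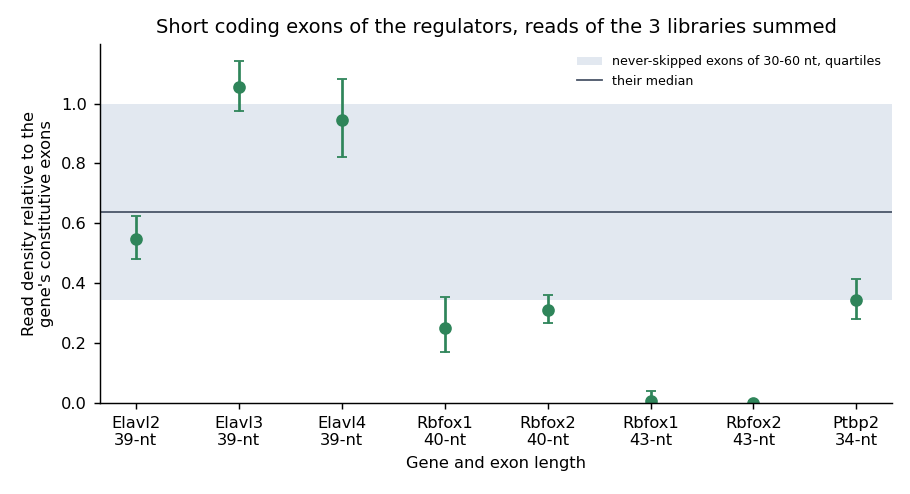
Read density of 8 short coding exons relative to the constitutive exons of the same gene, reads of the 3 libraries summed, with 95% Poisson intervals, and the quartiles and median of never-skipped exons of 30 to 60 nt as a band and a line. The 39-nt exons of Elavl3 and Elavl4 are near 1, the 40-nt exons of Rbfox1 and Rbfox2 near 0.3, and the 43-nt exons near 0.

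The members were not each other's nearest genes. By Euclidean distance over 6 values (log2 CDS RPKM and log2 5′ UTR:CDS density ratio in each library) among 8803 genes with enough reads, the nearest gene was Ciapin1 for Elavl1, Timm10 for Elavl2, Scamp5 for Elavl3, Dld for Elavl4, H2afy2 for Rbfox1, Ndfip2 for Rbfox2, Socs5 for Rbfox3, Cant1 for Nova1, Fubp1 for Nova2 and Sfr1 for Ptbp2. The distance was 0.332 for Rbfox1, the smallest, and 1.42 for Nova2, the largest. The closest members to each other were Elavl1 and Rbfox2, at 1.25, where Elavl1 was number 10 in nearness to Rbfox2 and Rbfox2 number 14 to Elavl1. In the other lists, 21 of 22 tested splicing regulators and 12 of 13 targets had a 5′ UTR:CDS log2 odds ratio of 1 or more in Harr against Chx, with medians of 2.97 and 2.03.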

How the data were processed

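Ribosome profiling libraries (WT, Chx and Harr, 1 each) were read from 9 tables, 1 per library and region. The authors deposited whole, unnormalized counts per exon segment of each transcript, the coverage signal (counts per nucleotide) and RPKM. Per the file headers, Plastid counted reads of 25 to 100 nt at their 5′ end with offset 0, on mm10, and reads of rRNA and duplicate reads had been discarded. The study's methods name TopHat, against the transcriptome and with multiple hits allowed, for the ORF search in these libraries, and Rsubread before Plastid counting in another experiment. Which of these made the counted alignments is not given in the sources used here. Only counts were used and RPKM was recomputed. Free-text descriptions go against the titles and treatments: they call WT and Chx input and Harr pulldown, from a "psd" region for WT and a "cytosol" region for the others, all of "dep" neurons. Groups were taken from the recorded treatment, which the titles and protocol share.

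Of 142446 identifiers 99.4% matched GENCODE M21. Segments were summed and the longest transcript per gene was kept. Comparisons were fitted on all genes, with Poisson, Wilson and exact binomial 95% intervals (Python 3.11.15, scipy 1.17.1, statsmodels 0.14.6), and were tested on simulated counts. No p-value was computed. At the floor of 3 counts the libraries resolve 0.0993 (WT), 0.0840 (Chx) and 0.308 (Harr) reads per 1000000. Molecular identifiers were trimmed from the reads per the study's methods, which do not say whether duplicates were found with them, so intervals and floors describe counting error alone. Members and lists were chosen with earlier results of these data known. All 10 members are named, with list genes that are highest or lowest (1 is not reported here), the Ptbp paralogs, and for each member the nearest gene. Alternatives were the most-read transcript, 5 added to counts, other read minima and scalings, and genes with UTRs free of CDS.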

Additional observations from a re-analysis of the deposited data

How the results depend on the processing

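Of 84 values recomputed under alternatives, 77 kept their direction and stayed within their limits, which were 1.5 times for a count, the second lowest to second highest member for a median over members, and the counting interval for a share. For the median of skipped exons the limits were 0.315 and 0.944, taken from the ordered exons and not from members. With genes limited to those whose UTRs overlap no CDS, members at a 5′ UTR:CDS log2 odds ratio of 1 or more in Chx against WT numbered 2 of 6, not 4 of 10. Per 1000000 CDS reads instead of all library reads, the median CDS level became 232 in WT, 201 in Chx and 171 in Harr, so the fall in Harr was smaller, and all 30 levels of single members moved with it. By reads not divided by length, Rbfox2 held 70.9% of its family in WT, 70.7% in Chx and 79.7% in Harr. Per 1000000 CDS reads Nova1 was higher in Harr than in Chx (28.7 against 24.3), the other way round than by RPKM (11.1 against 13.7). No median, count or share changed its direction. Counting all 5′ UTR exons free of CDS, chosen after seeing the data, gave 9 of 9 members at 1 or more in Harr against Chx, since Nova2 has none. Leaving out the first and last 15 codons was not run, because counts are tabulated per exon segment only. The median density of skipped exons was recomputed for the 18 with 10 or more reads (0.648), not for all 29 (0.312). No paired analysis was possible because each treatment has 1 library. The depth of Harr limits Rbfox3, with 54 CDS reads, and exons such as the 40-nt exon of Rbfox1, with 2.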

Other observations

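Reads also lay at starts that the longest transcripts do not use. In Elavl2 the 15 nt before a downstream start shared by 5 transcripts, which are coding in the longest transcript, had 101 reads in WT, 213 in Chx and 148 in Harr. In Rbfox1 a 34-nt 5′ UTR piece of another transcript that overlaps the coding sequence of the longest had 69, 69 and 16 reads. In Rbfox2 the 27-nt coding piece that follows the 230-nt 5′ UTR of another start had 9, 2 and 4 reads, while that 5′ UTR had 308 in Harr. Coding pieces of 8 and 9 nt that end the first coding exons of Ptbp2 and Elavl3 had 0 reads in all 3 libraries, and a 24-nt one of Elavl4 had 2, 0 and 6. How reads divide between the transcripts of a gene was not tested.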
